A study of Mus musculus with 6 samples.

Results

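Complement and coagulation are plasma cascades of serine proteases, cofactors, receptors and inhibitors. Their transcripts were described here as 53 mouse genes, 26 of complement and 27 of coagulation, in RNA labelled as liver from mice carrying a human tumor. The members were a given set of gene names, matched through the Ensembl identifiers of the mouse count table, with at least 10 counts in total over the 6 libraries, and all 53 reached that minimum. They belong to the 18018 mouse genes that were tested, of 56884 in the table. Each member was placed by the cell that mainly makes it, from general knowledge and not from these data. 34 members were classed as made by hepatocytes, 8 as shared between hepatocytes and stromal or myeloid cells, 5 as genes of macrophages, 5 as genes of vessels and stroma, and 1 (Cfd) as a gene of adipocytes.

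Most plasma complement and clotting proteins are secreted by hepatocytes, so the liver sets their supply. Complement starts when C1q binds antibody on a surface, when mannose-binding lectins bind sugars, or when C3 hydrolyzes spontaneously, and it ends with the pore-forming terminal components C5 to C9. Coagulation starts when tissue factor binds factor VII or when the contact system is activated, passes through factor X and thrombin, and ends in fibrin. Some parts are made elsewhere. The C1q chains, properdin and the A chain of factor XIII come largely from macrophages and related cells, while thrombomodulin, the protein C receptor and tissue factor pathway inhibitor sit on or come from endothelium.

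All mice were athymic male BALB/c (nu/nu) animals, 6 weeks old, whose livers were implanted with QGY-7703, a human hepatocellular carcinoma (HCC) cell line, and they lack T cells. 1 week later they received the vector AAV8 by the tail vein, carrying either siControl (genotype label WT) or siAATF (genotype label KD), and were followed for 3 more weeks. The siAATF vector holds a siRNA against mouse Aatf, encoding a transcription and nucleolar factor, under the TBG promoter, which is active in hepatocytes, so cells other than hepatocytes are not its direct target. 3 libraries were made per group, called siControl and siAATF below after their labels. No source used here says whether the 3 libraries of a group come from 3 mice, so the p-values measure the spread between these libraries, which may be partly technical.

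The groups differed in more than treatment. Mouse genes took 0.778% to 1.93% of the summed human and mouse counts in siControl libraries and 97.9% to 99.03% in siAATF, and the mouse totals were 213022 to 913584 counts in siControl and 11835898 to 42563694 in siAATF. Levels are given as CPM, the count scaled to the same total of mouse counts in every library, after trimmed-mean (TMM) normalization, and 3 counts, the limit that a count of 0 allows, correspond to 1.67 to 7.23 CPM in siControl and to 0.103 to 0.605 in siAATF, for counting error only. Aatf itself was not lower, at 9.63, 2.42 and 12.8 CPM in siControl and 13.3, 21.99 and 18.9 CPM in siAATF (log2 fold change 0.93 ± 0.47 (SE), edgeR adjusted p = 0.152), so the mouse table does not check the KD label. Per 1000 counts of 10 hepatocyte markers, genes of the cells the vector is aimed at, Aatf had 1.68, 1.15 and 5.69 in siControl and 0.171, 0.7099 and 0.240 in siAATF and was lower in every siAATF library, as were 57.5% of all genes tested. Treatment and the share of mouse RNA in the tissue piece cannot be told apart, and neither can fewer cells of a type and less RNA per cell in such bulk samples. The siControl libraries, although labelled liver, thus hold mostly human RNA. The study states that blood and tumor tissue were collected after the follow-up. Which piece gave the RNA, and whether both groups were sampled at the same kind of site, is not given in the sources used here. How many of the few mouse counts in siControl came from misassigned human reads was not tested.

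Promoter windows were searched for the letters of 4 kinds of factor site. Windows of 300 bases, from 250 before to 50 after an annotated start, were taken from RefSeq (GRCm38.p6) for the 41 members with an entry, and are shown for the fibrinogen chains, the most strongly expressed clotting factor, and for C1qc, a C1q chain. Capitals mark the core letters GTTAAT of sites bound by the hepatocyte factor HNF1, the letters TTGCNNAA of C/EBP sites, or the letters GAGGAAGT of sites bound by PU.1, a factor of macrophages, on either strand.
Fga, chr3:83025903-83026202 on the plus strand: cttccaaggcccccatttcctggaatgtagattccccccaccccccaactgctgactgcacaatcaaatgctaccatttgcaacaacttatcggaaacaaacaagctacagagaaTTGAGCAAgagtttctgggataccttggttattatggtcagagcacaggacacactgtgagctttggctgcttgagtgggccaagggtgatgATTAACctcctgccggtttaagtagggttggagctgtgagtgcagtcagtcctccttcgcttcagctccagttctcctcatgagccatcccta
Fgb, chr3:83049814-83050113 on the minus strand: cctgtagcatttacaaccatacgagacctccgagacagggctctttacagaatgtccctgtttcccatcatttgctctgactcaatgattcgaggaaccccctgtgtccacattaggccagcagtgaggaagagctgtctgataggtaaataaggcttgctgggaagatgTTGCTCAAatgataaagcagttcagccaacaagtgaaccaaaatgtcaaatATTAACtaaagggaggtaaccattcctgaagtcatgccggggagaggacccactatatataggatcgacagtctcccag
Fgg, chr3:83007474-83007773 on the plus strand: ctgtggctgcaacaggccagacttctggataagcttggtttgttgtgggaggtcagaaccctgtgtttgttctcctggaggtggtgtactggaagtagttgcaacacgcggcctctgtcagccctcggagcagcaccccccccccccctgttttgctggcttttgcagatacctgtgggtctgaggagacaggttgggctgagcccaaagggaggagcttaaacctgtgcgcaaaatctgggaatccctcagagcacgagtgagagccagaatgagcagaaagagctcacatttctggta
C1qc, chr4:136892865-136893164 on the minus strand: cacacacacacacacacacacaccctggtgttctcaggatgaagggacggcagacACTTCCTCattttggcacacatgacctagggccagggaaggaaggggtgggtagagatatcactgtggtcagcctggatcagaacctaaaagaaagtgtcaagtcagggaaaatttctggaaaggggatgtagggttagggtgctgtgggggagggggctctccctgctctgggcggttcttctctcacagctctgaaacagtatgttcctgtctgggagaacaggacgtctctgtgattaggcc
Of the 28 hepatocyte-made members with a window, 9 (32.1%) held the HNF1 letters, against 8.24% of all 27025 genes in the table, and 9 (32.1%) held the C/EBP letters, against 12.2%. The HNF1 letters also stood in 1 of the 4 macrophage members with a window (Cfp), 1 of 4 vessel members (Tfpi2) and 1 of 4 shared members (C1ra), and the C/EBP letters in 0, 1 and 3 of them. Fga and Fgb held both, and Fgg held neither in this window. The PU.1 letters stood in 0 of the 28, in 2 of the 4 macrophage members with a window (C1qc and F13a1), and in 3.69% of all genes. The HNF4 letters CAAAGTCCA stood in the window of 0 members and in 0.555% of all genes. These matches are descriptions of the letters and say nothing of binding.

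With TMM scaling, the hepatocyte-made and macrophage genes moved in opposite directions between the groups. By edgeR's quasi-likelihood test with adjustment over all 18018 genes, 39 of the 53 members were higher in siAATF at an adjusted p under 0.05 and 8 were lower, while 17.6% of all genes tested were called higher and 14.4% lower. All 34 hepatocyte-made members were called higher with TMM scaling (median log2 fold change 3.33), but 19 were with the mouse library size alone, where Masp1 fell below 0, and 3 when scaled on hepatocyte markers. All 5 macrophage members and 3 of the 5 vessel members were called lower with TMM, and 0 of these 10 were when human and mouse counts together set the library size. The median of all genes tested was 0.50, so relative to the typical mouse gene the hepatocyte-made median was 2.82 and the macrophage median -4.65. With the mouse library size alone the whole table shifted to a median of -1.30, and 19 members were then called higher and 10 lower, against 4.15% and 40.3% of all genes on that scale. With the counts of both species 47 members were called higher and 0 lower, against 87.2% and 0.66% of all genes.

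**Figure D1:**
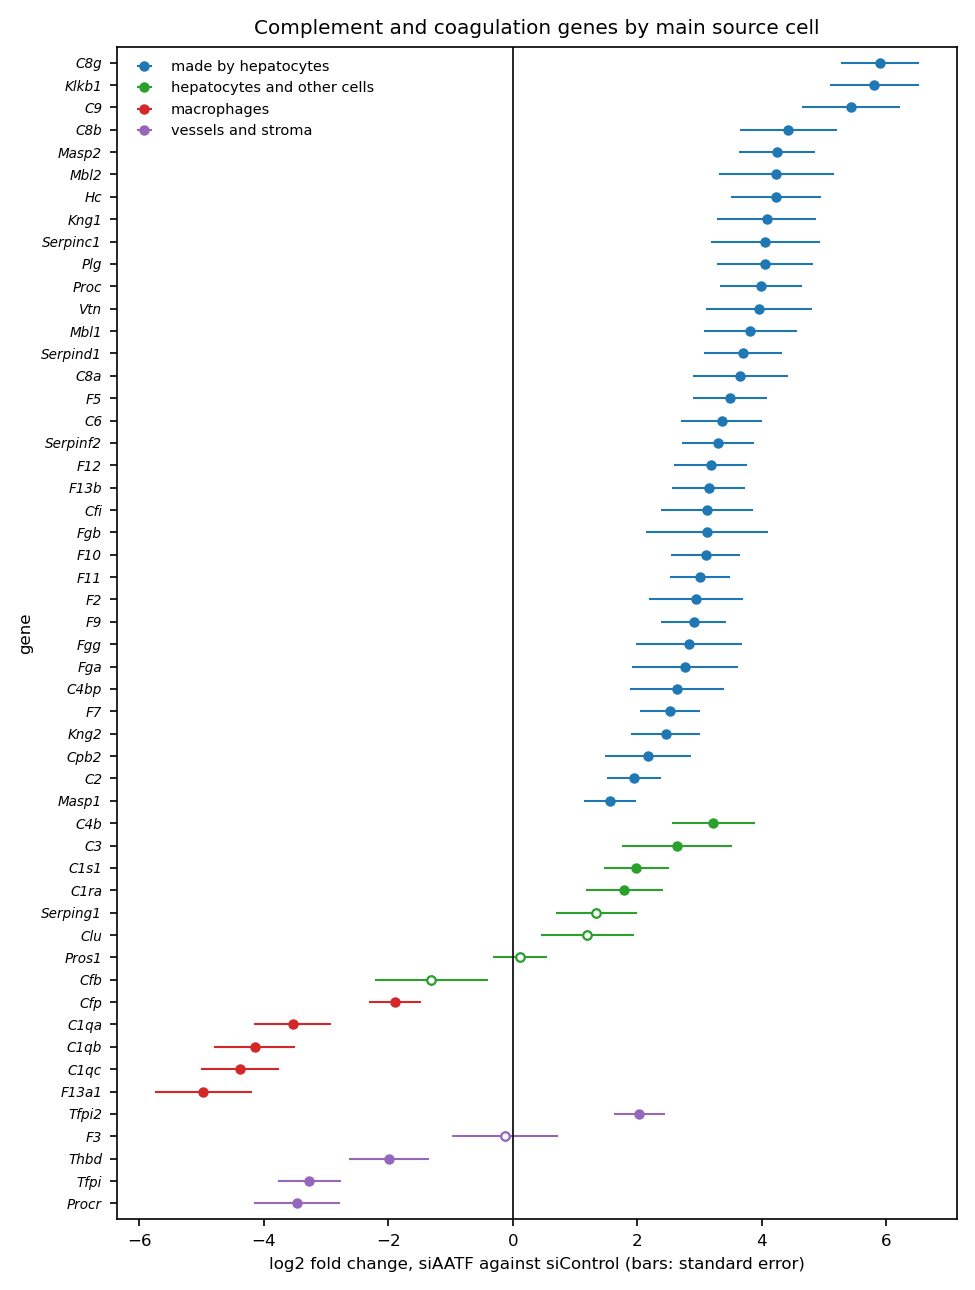
Log2 fold change of siAATF against siControl (horizontal axis) for 52 of the 53 genes, with bars of 1 standard error and n = 3 libraries per group; open circles did not reach an adjusted p of 0.05, and Cfd, at 0 counts in siControl, is left out. The 34 hepatocyte-made genes lie between 1.56 (Masp1) and 5.90 (C8g), and the 5 macrophage genes between -4.97 (F13a1) and -1.89 (Cfp).

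In 38 members the lowest siAATF library was above the highest of siControl and in 8 every one was below, against 34.5% and 18.1% of all genes tested. The 38 include Cfd, which had 0 counts in siControl and passed the minimum through siAATF alone. Under the rule the study used (an absolute log2 fold change of 2 or more with an unadjusted p under 0.05), 36 members were higher, Cfd again among them, and 6 lower, against 13.6% and 13.1% of all genes. The members made by hepatocytes took 1.61%, 0.765% and 0.783% of the mouse counts in siControl and 2.63%, 1.25% and 5.36% in siAATF, so without TMM the groups overlapped in this summed share.

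Among complement genes made by hepatocytes, the terminal components C8g, C9 and C8b had the 3 largest log2 fold changes. C8g, the gamma chain of C8, was at 25.7, 9.66 and 12.3 CPM in siControl and 1143, 903 and 902 CPM in siAATF (log2 fold change 5.902 ± 0.62 (SE), edgeR adjusted p = 5.26e-05). C9, which polymerizes into the membrane pore, was at 110.0, 28.99 and 27.3 CPM in siControl and 1740.2, 3159 and 2395 CPM in siAATF (log2 fold change 5.43 ± 0.79 (SE), edgeR adjusted p = 0.00029). Every siAATF library of both genes was far above every siControl library, and the siAATF libraries lay within 1.27-fold of each other for C8g and 1.82-fold for C9. The other terminal genes rose too, with log2 fold changes of 4.43 for C8b, 4.24 for Hc, which encodes C5, 3.66 for C8a and 3.35 for C6. Without siControl replicate 1, the highest control, the log2 fold change was 6.43 for C9, 6.34 for C8b, 5.302 for Hc, 5.06 for C8a and 4.48 for C6, and all 5 stayed called.

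The lectin pathway and the C2 protease spanned a wide range. Mbl1 and Mbl2, the sugar-binding lectins, rose by log2 fold changes of 3.82 ± 0.75 and 4.24 ± 0.92, although Mbl2 had 56, 0 and 8 counts in siControl. Masp2, the protease that cleaves C4 and C2, rose by 4.25 ± 0.61, from 14, 1 and 6 counts in siControl. Its partner Masp1 moved least of the hepatocyte-made complement genes, at 62.6, 43.5 and 67.5 CPM in siControl and 143, 132 and 244 CPM in siAATF (log2 fold change 1.56 ± 0.42 (SE), edgeR adjusted p = 0.0133). Its groups did not overlap, yet the call was lost without siControl replicate 2 (adjusted p = 0.0648) or siControl replicate 3 (adjusted p = 0.0598). C2, the protease part of the C3 convertase, was at 28.1, 19.3 and 36.8 CPM in siControl and 119, 67.6 and 148 CPM in siAATF (log2 fold change 1.95 ± 0.44 (SE), edgeR adjusted p = 0.00447), and all siAATF libraries were higher than all siControl libraries. Of the exon bases of Masp2 and C2, 43.7% and 35.8% are shared with no other gene, so reads on the remaining bases may not have been counted. Without siControl replicate 1 the log2 fold change rose to 6.69 for Mbl2, 5.104 for Mbl1 and 5.22 for Masp2, so the size of these differences rests on that library.

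Of the 5 regulators of complement, Cfi, C4bp and Vtn rose, and Serping1 and Clu did not pass the test. Cfi, which cleaves C3b and C4b, had a log2 fold change of 3.12 ± 0.74 and C4bp, a binding protein for C4b, one of 2.64 ± 0.75. Without siControl replicate 3 the adjusted p was 0.0512 for Cfi and 0.103 for C4bp, and for C4bp it was 0.0837 without siControl replicate 2. Vtn encodes vitronectin, which binds the terminal complex and keeps it from inserting into membranes. It was at 743, 215 and 203 CPM in siControl and 4397, 3467 and 10253 CPM in siAATF (log2 fold change 3.96 ± 0.85 (SE), edgeR adjusted p = 0.00358), and its groups stood well apart. The log2 fold change without siControl replicate 1 was 4.03 for Cfi, 3.86 for C4bp and 4.84 for Vtn, and without siAATF replicate 3 it was 2.35 for Cfi and 1.95 for C4bp.

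In the contact system, Klkb1 and Kng1 rose most. Klkb1, plasma prekallikrein, was at 14.5, 0 and 6.69 CPM in siControl and 495, 494 and 379.7 CPM in siAATF (log2 fold change 5.81 ± 0.71 (SE), edgeR adjusted p = 0.000102). The siControl values rest on 18, 0 and 12 counts, 56.8% of its exon bases are shared with no other gene, and the siAATF libraries were all higher and within 1.302-fold of each other. Kng1, a kininogen and source of bradykinin, was at 449, 188 and 206 CPM in siControl and 2445, 3229 and 8653 CPM in siAATF (log2 fold change 4.08 ± 0.80 (SE), edgeR adjusted p = 0.00193). Kng2, the neighboring kininogen gene, was at 105, 70.1 and 59.1 CPM in siControl and 288, 244 and 758 CPM in siAATF (log2 fold change 2.46 ± 0.55 (SE), edgeR adjusted p = 0.00456). Both kininogens were higher in all siAATF libraries, but they are near copies and reads that fit both would have been discarded. F11 and F12, the zymogens of the same branch, rose by log2 fold changes of 3.00 ± 0.49 and 3.18 ± 0.59. Without siControl replicate 1 the log2 fold change was 6.595 for Klkb1 and 3.96 for F12, and without siAATF replicate 3 it was 3.41 for Kng1 and 1.84 for Kng2.

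All 20 hepatocyte-made coagulation genes, among them zymogens, a cofactor and inhibitors, rose with TMM scaling. The vitamin K-dependent genes among these 20 rose by log2 fold changes of 2.95 ± 0.76 for F2 (prothrombin), 2.91 ± 0.53 for F9, 3.10 ± 0.55 for F10 and 2.53 ± 0.48 for F7. Proc, another of them, whose activated product degrades factors V and VIII, rose by 3.99 ± 0.66. F5, the cofactor of factor Xa, rose by 3.50 ± 0.60. Among inhibitors, Serpinc1 (antithrombin) rose by 4.06 ± 0.87 and Serpind1 (heparin cofactor II) by 3.69 ± 0.62. The call of F2 was lost without siControl replicate 2 (adjusted p = 0.0622) or siControl replicate 3 (adjusted p = 0.0762), and 41.7% of the exon bases of Serpinc1 are shared with no other gene. Without siControl replicate 1 the log2 fold change was 3.805 for F2, 3.52 for F9, 4.95 for Proc, 4.28 for F5, 5.25 for Serpinc1 and 4.455 for Serpind1, and for Serpinc1 it was 3.44 without siAATF replicate 3.

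With TMM scaling the fibrinogen chains, which thrombin turns into fibrin, rose in siAATF but spread widely among its libraries. Without TMM the groups overlapped in the summed share of the 5 genes of fibrin and its crosslinking, these chains among them. That share was 0.863%, 0.517% and 0.485% of mouse counts in siControl and 0.812%, 0.336% and 2.82% in siAATF. On GRCm39, the build of the count table, their genes lie together at chr3:82915031-82922356 (Fgg, ENSMUSG00000033860), chr3:82933383-82940934 (Fga, ENSMUSG00000028001) and chr3:82947448-82957170 (Fgb, ENSMUSG00000033831). Fgb was at 1992, 1015 and 939.9 CPM in siControl and 4082, 3477 and 26692 CPM in siAATF, so siAATF replicate 3 was 7.68 times the lowest of its group (log2 fold change 3.12 ± 0.98 (SE), edgeR adjusted p = 0.0284). Fgg was at 1293, 676 and 678 CPM in siControl and 3897, 1830.3 and 13060.5 CPM in siAATF (log2 fold change 2.83 ± 0.85 (SE), edgeR adjusted p = 0.023), and Fga at 1534, 824 and 789 CPM in siControl and 3861, 2674 and 14868 CPM in siAATF (log2 fold change 2.77 ± 0.85 (SE), edgeR adjusted p = 0.0248). For each of the 3 chains replicate 1 was the highest siControl library and replicate 3 the highest siAATF library. Without siAATF replicate 3 the log2 fold change was 1.72 for Fga (adjusted p = 0.0577) and 1.60 for Fgb (adjusted p = 0.086), and Fgg stayed called at 1.78 (adjusted p = 0.0469). Without siControl replicate 2 or 3 the adjusted p of the chains was 0.106 to 0.160. F13b, the carrier chain of factor XIII, rose by 3.15 ± 0.59. F13b had a log2 fold change of 4.48 without siControl replicate 1.

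Of the fibrinolysis genes, Plg rose by 4.06 ± 0.77 and Serpinf2, the plasmin inhibitor, by 3.30 ± 0.57. Cpb2 encodes a carboxypeptidase that trims fibrin and slows its lysis. It was at 165, 84.6 and 114 CPM in siControl and 338, 144 and 1159 CPM in siAATF (log2 fold change 2.17 ± 0.69 (SE), edgeR adjusted p = 0.0301). It was the 1 hepatocyte-made gene whose groups overlapped in CPM, with siAATF replicate 3 at 8.05 times siAATF replicate 2. Its call was lost without siAATF replicate 3, siControl replicate 2 or siControl replicate 3, where the adjusted p was 0.110, 0.125 and 0.128. Without siAATF replicate 3 the log2 fold change of Cpb2 was 1.06, and without siControl replicate 1 that of Plg was 4.9.

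Per kilobase of gene length, the highest members in siAATF were Vtn, Fgb and Fgg. Vtn reached 3463 ± 2109 CPM per kilobase of gene length (RPKM; mean ± SD, n = 3), Fgb 2997 ± 3473 and Fgg 2992 ± 2856, and C3 and Fga followed at 2388 ± 1959 and 2370.2 ± 2234. Their spreads overlapped, so the order among them is not resolved. In siControl the highest mean was that of C1qa, at 615 ± 427 RPKM, followed by Clu at 533 ± 379, and their spreads overlapped too. Fgg reached 422 ± 169.8 RPKM there. Among hepatocyte-made members the lowest level in siAATF was that of Masp1, at 20.2 ± 7.22 RPKM.

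The 8 genes that stromal and myeloid cells also make had smaller differences, at a median log2 fold change of 1.57, and 4 of them were called higher, 4 not called and 0 lower with TMM. C4b, which encodes complement C4, was at 449, 219.8 and 274 CPM in siControl and 1562, 3072 and 4189 CPM in siAATF (log2 fold change 3.22 ± 0.66 (SE), edgeR adjusted p = 0.00269). C3, the central protein of all 3 routes of complement, was at 3143, 1268 and 1502 CPM in siControl and 5922, 7009.6 and 23868 CPM in siAATF (log2 fold change 2.64 ± 0.88 (SE), edgeR adjusted p = 0.0369). In both genes the groups did not overlap, but the C3 call was lost without siAATF replicate 3, siControl replicate 2 or siControl replicate 3, with adjusted p of 0.0779, 0.151 and 0.195. C4b has a near copy, C4a, and reads that fit both would have been discarded. Without siAATF replicate 3 the log2 fold change of C3 was 1.798.

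C1ra and C1s1 encode the proteases bound to C1q. C1s1 was at 103, 45.9 and 63.6 CPM in siControl and 249, 145 and 457 CPM in siAATF (log2 fold change 1.99 ± 0.52 (SE), edgeR adjusted p = 0.0115), with siAATF above siControl throughout. C1ra was at 120.4, 36.2 and 45.7 CPM in siControl and 241, 79.7 and 391 CPM in siAATF (log2 fold change 1.79 ± 0.62 (SE), edgeR adjusted p = 0.043), and here siAATF replicate 2 fell below siControl replicate 1. The call of C1s1 was lost without siControl replicate 2 (adjusted p = 0.064) or 3 (adjusted p = 0.0776), and that of C1ra without siControl replicate 2 (adjusted p = 0.160), siControl replicate 3 (adjusted p = 0.190) or siAATF replicate 3 (adjusted p = 0.0535). Both have near copies, C1rb and C1s2. C1ra had a log2 fold change of 2.51 without siControl replicate 1.

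The remaining shared genes did not pass the test. Serping1, the C1 inhibitor, which also restrains the contact system, was at 588, 302 and 539 CPM in siControl and 645, 586 and 2403 CPM in siAATF (log2 fold change 1.34 ± 0.65 (SE), edgeR adjusted p = 0.137). Clu, a chaperone that binds the terminal complex, was at 1756, 592 and 548 CPM in siControl and 1950.2, 719.9 and 3979 CPM in siAATF (log2 fold change 1.198 ± 0.74 (SE), edgeR adjusted p = 0.242). The groups overlapped in both genes, and single libraries moved both values. Serping1 was at 1.73 without siAATF replicate 2 (adjusted p = 0.0422) and at 0.44 without siAATF replicate 3 (adjusted p = 0.578), and Clu at 1.95 without siControl replicate 1 (adjusted p = 0.0836) and at 0.56 without siAATF replicate 3 (adjusted p = 0.549). Pros1 encodes protein S, the cofactor of activated protein C, and was at 59.4, 41.1 and 52.99 CPM in siControl and 43.1, 31.9 and 92.7 CPM in siAATF (log2 fold change 0.11 ± 0.44 (SE), edgeR adjusted p = 0.87). Cfb, the protease of the alternative convertase, gave 7, 0 and 3 counts in the siControl libraries and 32, 5 and 22 in those of siAATF, which is 5.62, 0 and 1.67 CPM in siControl and 1.104, 1.01 and 1.22 CPM in siAATF (log2 fold change -1.31 ± 0.91 (SE), edgeR adjusted p = 0.293). Only 18.4% of the exon bases of Cfb are shared with no other gene, because the gene model Gm20547 spans it, and Gm20547 had 0 counts in every library. Reads on the remaining bases of Cfb may not have been counted, and without siControl replicate 1 its log2 fold change was -0.12 (adjusted p = 0.949). The 5 fibroblast markers, as a group, summed to 5770.4 to 9139 CPM in siControl and to 290.4 to 468 in siAATF, with 4 of 5 called lower and none at 0. The part of stromal cells in the shared genes was not tested.

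The C1q chains, which together form the recognition molecule of the classical pathway, were lower in siAATF. On GRCm39 their genes lie side by side at chr4:136623228-136626114 (C1qa, ENSMUSG00000036887), chr4:136617115-136620376 (C1qc, ENSMUSG00000036896) and chr4:136607440-136613498 (C1qb, ENSMUSG00000036905). C1qa was at 1103, 217 and 597 CPM in siControl and 65.3, 49.01 and 51.5 CPM in siAATF (log2 fold change -3.53 ± 0.62 (SE), edgeR adjusted p = 0.000927). C1qb was at 963, 159 and 474 CPM in siControl and 33.02, 24.6 and 32.7 CPM in siAATF (log2 fold change -4.15 ± 0.65 (SE), edgeR adjusted p = 0.000468). C1qc was at 789, 174 and 357 CPM in siControl and 27.5, 13.7 and 21.9 CPM in siAATF (log2 fold change -4.38 ± 0.63 (SE), edgeR adjusted p = 0.000272). For each chain all siAATF libraries lay below all siControl libraries, siControl replicate 2 was the lowest control, and the siAATF libraries were within 2.01-fold of each other. Cfp, properdin, which stabilizes the alternative convertase, was at 70.7, 57.98 and 115 CPM in siControl and 14.8, 23.8 and 28.1 CPM in siAATF (log2 fold change -1.89 ± 0.41 (SE), edgeR adjusted p = 0.00379), also without overlap. F13a1, the catalytic chain of factor XIII, was at 40.1, 145 and 60.8 CPM in siControl and 0.725, 1.01 and 5.49 CPM in siAATF (log2 fold change -4.97 ± 0.78 (SE), edgeR adjusted p = 0.000467), and siAATF replicate 3 was its highest siAATF library, still below all controls. Without siControl replicate 1 the log2 fold changes of C1qa, C1qb and C1qc were -2.899, -3.41 and -3.67, and that of F13a1 was -6.54 without siAATF replicate 3 and -4.33 without siControl replicate 2.

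Markers of these cells did not all move the same way. Of 7 macrophage markers, 5 (Adgre1, Csf1r, Cd68, Lyz2 and Fcgr1) were called lower and Cd14 and Mrc1 were not called. Their summed level was 1201 to 2066 CPM in siControl and 30.5 to 197 in siAATF, with none at 0 in any library. Of 5 markers of Kupffer cells, the resident macrophages of the liver, 0 were called by edgeR in either direction (2 at an unadjusted p under 0.05). Their log2 fold changes were all above 0, with a median of 1.30, and Clec4f and Timd4 were higher in every siAATF library without passing the test (adjusted p = 0.0705 and 0.0967). Their sum was 16.9 to 110.0 CPM in siControl and 78.7 to 133 in siAATF, and Timd4 and Marco were at 0 in siControl replicate 2. Platelets also hold F13a1 transcripts, and 4 of 4 platelet markers were called lower, from a sum of 45.0 to 116 CPM in siControl to 11.5 to 20.4 in siAATF. Of 4 neutrophil markers, Ly6g was called lower and 3 were not called, at a median log2 fold change of -3.75. Their sum was 16.9, 374 and 310 CPM in siControl and 0.518, 0 and 40.1 CPM in siAATF, so the groups overlapped. The part of each cell type in the fall of these genes was not tested.

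Set against the macrophage markers of the same library, no C1q chain was called lower. On this scale 81.6% of all genes tested were called higher and 0.433% lower. Per 1000 counts of the 7 markers, C1qa had 534, 181 and 401 in siControl and 778, 1609 and 262 in siAATF, and the groups overlapped (log2 fold change 1.24, adjusted p = 0.191 with these markers as library size in edgeR). C1qb and C1qc were not called either, at 0.56 and 0.20, with adjusted p of 0.55 and 0.833. Cfp had 34.2, 48.3 and 77.04 in siControl and 176, 781 and 143 in siAATF per 1000 marker counts and was higher in every siAATF library (2.76, adjusted p = 0.00468), opposite to its direction in CPM. F13a1 stayed lower in sign at -1.42 but was not called (adjusted p = 0.223). The markers were themselves uneven on this scale, from -1.59 for Lyz2 to 3.91 for Mrc1.

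In CPM of the counts of both species, which sets the mouse genes against the tumor RNA as well, C1qa was at 37.6, 3.29 and 19.8 in siControl and 44.02, 20.1 and 26.3 in siAATF and the groups overlapped (log2 fold change 0.57, adjusted p = 0.428). C1qb, C1qc and F13a1 were at -0.06, -0.22 and -0.56 and were not called, with adjusted p of 0.939, 0.746 and 0.464. Cfp was called higher on this scale (2.25, adjusted p = 0.001). The median of all mouse genes on it was 4.66, so all 5 macrophage genes still stood below the typical mouse gene.

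**Figure D2:**
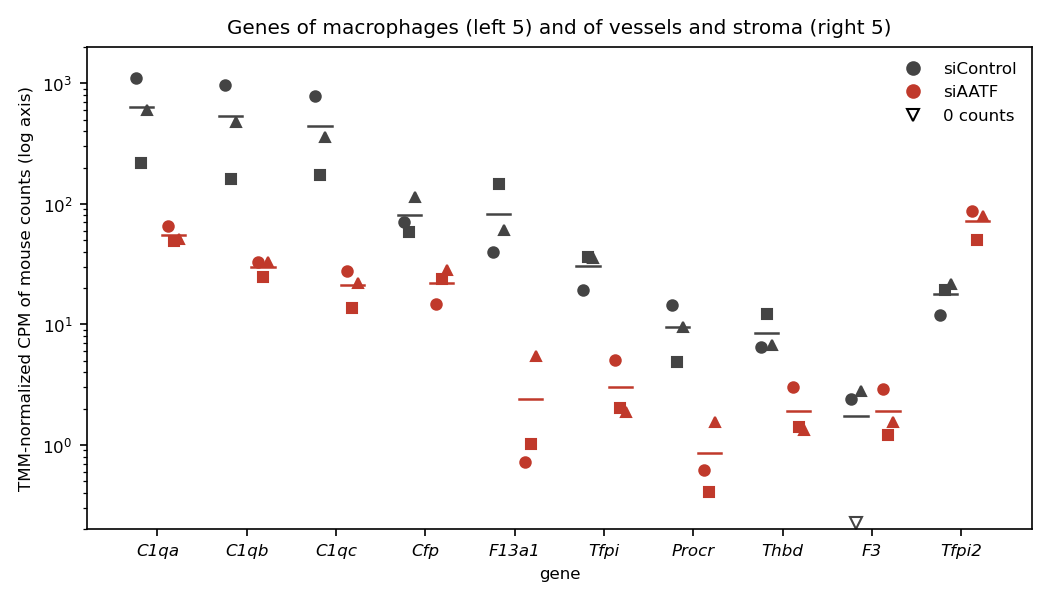
TMM-normalized CPM of mouse counts (vertical log axis) of the 5 macrophage genes and the 5 genes of vessels and stroma in each library; circles, squares and triangles are replicates 1, 2 and 3, lines are group means, and the open triangle is a library with 0 counts. C1qa lies at 217 to 1103 CPM in siControl and 49.0 to 65.3 in siAATF, while Tfpi2 is the gene with all siAATF points above all siControl points.

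The vessel genes did not move as 1 group. Tfpi, which blocks tissue factor with factor VIIa and factor Xa, was at 19.3, 36.2 and 35.7 CPM in siControl and 5.07, 2.02 and 1.89 CPM in siAATF (log2 fold change -3.27 ± 0.50 (SE), edgeR adjusted p = 0.000409). Procr, the endothelial protein C receptor, was at 14.5, 4.83 and 9.48 CPM in siControl and 0.621, 0.403 and 1.55 CPM in siAATF (log2 fold change -3.46 ± 0.69 (SE), edgeR adjusted p = 0.00225), from 18, 2 and 17 counts in the siControl libraries and 18, 2 and 28 in those of siAATF. Thbd, thrombomodulin, which turns thrombin toward protein C, was at 6.42, 12.1 and 6.69 CPM in siControl and 3.04, 1.41 and 1.33 CPM in siAATF (log2 fold change -1.99 ± 0.64 (SE), edgeR adjusted p = 0.0314). In these 3 genes all siAATF libraries were below all siControl libraries. The counts of Thbd were 8, 5 and 12 in siControl, and its call was lost without siControl replicate 1, 2 or 3 or siAATF replicate 2 or 3, with adjusted p of 0.0597, 0.0955, 0.0865, 0.0644 and 0.0776. Without siAATF replicate 3 the log2 fold change of Procr was -4.09, and without siAATF replicate 1 that of Tfpi was -3.92.

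Tissue factor and the related inhibitor Tfpi2 behaved differently. F3, tissue factor, the trigger of coagulation, was at 2.41, 0 and 2.79 CPM in siControl and 2.93, 1.21 and 1.55 CPM in siAATF (log2 fold change -0.12 ± 0.85 (SE), edgeR adjusted p = 0.932), and with 3, 0 and 5 counts in siControl a difference was not detectable at this depth. Tfpi2, an inhibitor of plasmin and other proteases deposited in matrix, was at 12.04, 19.3 and 21.8 CPM in siControl and 86.6, 50.4 and 79.05 CPM in siAATF (log2 fold change 2.03 ± 0.41 (SE), edgeR adjusted p = 0.00236). Each siAATF library of Tfpi2 was above each siControl library, so it went opposite to Tfpi. With the mouse library size alone its log2 fold change was 0.26 and was not called (adjusted p = 0.673). With human and mouse counts together as library size, Procr and Tfpi turned to 0.67 and 1.13 and were not called (adjusted p = 0.479 and 0.146), and Thbd turned to 2.41 and was called higher (adjusted p = 0.00842), the reverse of its TMM call. These 3 values lie below the median of 4.66 of all genes on that scale. Of 6 endothelial markers, Pecam1, Cdh5 and Emcn were called lower and Kdr, Tek and Stab2 were not called. The 6 summed to 292 to 389 CPM in siControl and 59.6 to 153 in siAATF with none at 0, and their part in these changes was not tested.

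Cfd, the protease that activates factor B and a product of adipocytes, gave 0, 0 and 0 counts in the siControl libraries and 21, 13 and 16 in those of siAATF. Its siAATF values of 0.725, 2.62 and 0.888 CPM did not all exceed the level that 3 counts mark in siControl, so no fold is given, and it was not called (edgeR adjusted p = 0.0898). Of 4 adipocyte markers, Lep was at 0 in all libraries and only Cidec could be tested, which was not called. A difference in Cfd was not detectable at this depth.

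The rise of the hepatocyte-made genes was compared with the RNA of 10 hepatocyte marker genes, among them Alb, Ttr and Hnf4a. All 10 were called higher, at a median log2 fold change of 4.005, and their summed level was 2094 to 5749 CPM in siControl and 30968 to 78581 in siAATF, with none at 0. Within siControl, replicate 1 had the largest share of these markers, 1.02% of mouse counts against 0.407% and 0.443%, and it was also the highest control for every hepatocyte-made member except C2, Masp1 and F11. A member's counts per 1000 of these marker counts form a ratio within a library that needs no scaling between libraries.

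On that ratio the hepatocyte-made genes moved in different directions. The ratios of 15 genes were higher in every siControl library than in any siAATF library, those of 3 were higher in every siAATF library, and 16 overlapped, while 57.5% of all genes tested were higher in siControl and 10.6% in siAATF. With the markers as library size in edgeR, 3 of 34 were called higher, 7 lower and 24 were not called, with a median of -0.63, against 0.533% of all genes called higher and 67.9% lower. The whole mouse table had a median of -3.63 on this scale, so all 34 stayed above the typical gene. Klkb1 had 2.51, 0 and 2.97 in siControl and 6.39, 15.9 and 4.83 in siAATF per 1000 marker counts (2.04, adjusted p = 0.0115). C8g had 4.47, 4.61 and 5.44 in siControl and 14.8, 29.2 and 11.5 in siAATF (1.93, adjusted p = 0.0138), and C9 had 19.1, 13.8 and 12.1 in siControl and 22.5, 102 and 30.5 in siAATF (1.77, adjusted p = 0.0189). These 3 genes were higher in every siAATF library against the sum of the markers, but not against each marker, since the marker Cps1 was itself called higher on this scale (1.68, adjusted p = 0.032).

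Of the 7 genes called lower on this ratio, 2 were of complement and 5 of coagulation, against 14 and 20 among all 34. Masp1 had 10.9, 20.8 and 29.9 in siControl and 1.84, 4.25 and 3.10 in siAATF per 1000 marker counts (-2.74, adjusted p = 0.000343) and C2 had 4.89, 9.23 and 16.3 in siControl and 1.54, 2.18 and 1.88 in siAATF (-2.44, adjusted p = 0.00155). Cpb2, Kng2, Fga, F7 and Fgg were also called lower on this scale, at -2.33, -1.86, -1.63, -1.62 and -1.62. The 14 hepatocyte-made complement genes had a median of -0.09 and the 20 coagulation genes of -1.04, and that difference was not tested. The markers themselves lay between -0.85 (Apob) and 1.68 (Cps1) on this scale. Of the 8 shared genes, 7 were called lower, against 67.9% of all genes tested. Their median of -2.77 lay above the median of -3.63 of all genes on this scale. Clu had 305, 283 and 243 in siControl and 25.2, 23.2 and 50.6 in siAATF per 1000 marker counts (-3.07, adjusted p = 0.000112).

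**Figure D3:**
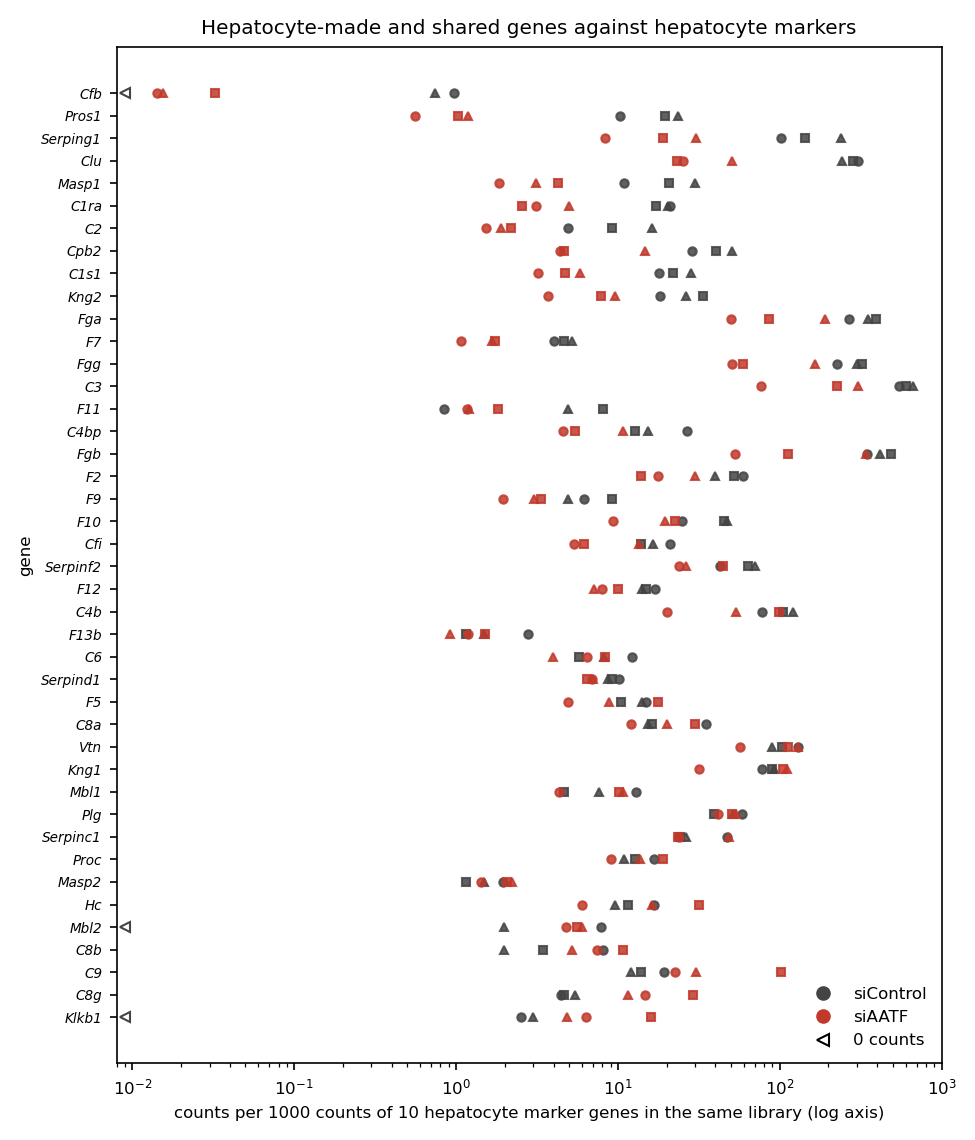
Counts per 1000 counts of 10 hepatocyte markers in the same library (horizontal log axis) for the 34 hepatocyte-made and 8 shared genes, ordered by log2 fold change with the markers as library size; circles, squares and triangles are replicates 1, 2 and 3, and open triangles are libraries with 0 counts. Klkb1, C8g and C9 have all siAATF points to the right of siControl, and Masp1 has siControl at 10.9 to 29.9 against 1.84 to 4.25 in siAATF.

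Chains of 1 protein were compared as shares of their summed level per gene length. The 3 fibrinogen chains had similar mean shares in both groups, with a wider spread in siAATF, where single shares ran from 25.4% (Fgb) to 44.2% (Fgg) in replicate 1. Fga took 31.4% ± 0.427 in siControl and 30.3% ± 3.03 in siAATF, Fgb 30.7% ± 1.03 in siControl and 32.7% ± 6.67 in siAATF and Fgg 37.9% ± 0.841 in siControl and 37.1% ± 6.21 in siAATF (SD, n = 3), and the groups overlapped for each chain. In C1q, C1qa took 42.2% ± 1.63 in siControl and 54.3% ± 3.72 in siAATF and C1qc 25.6% ± 3.12 in siControl and 17.5% ± 3.01 in siAATF, both without overlap, while C1qb took 32.2% ± 2.56 in siControl and 28.3% ± 2.32 in siAATF. In C8, C8a took 50.5% ± 6.73 in siControl and 25.5% ± 7.63 in siAATF and C8g 33.6% ± 12.4 in siControl and 58.98% ± 5.998 in siAATF, both without overlap, and C8b took 15.9% ± 6.07 in siControl and 15.5% ± 2.73 in siAATF. In siControl replicate 2 the C8 shares rest on 14 counts of C8a, 3 of C8b and 4 of C8g. With 3 against 3 libraries an exact permutation test cannot go below p = 0.1, and no test of these shares was made.

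**Figure D4:**
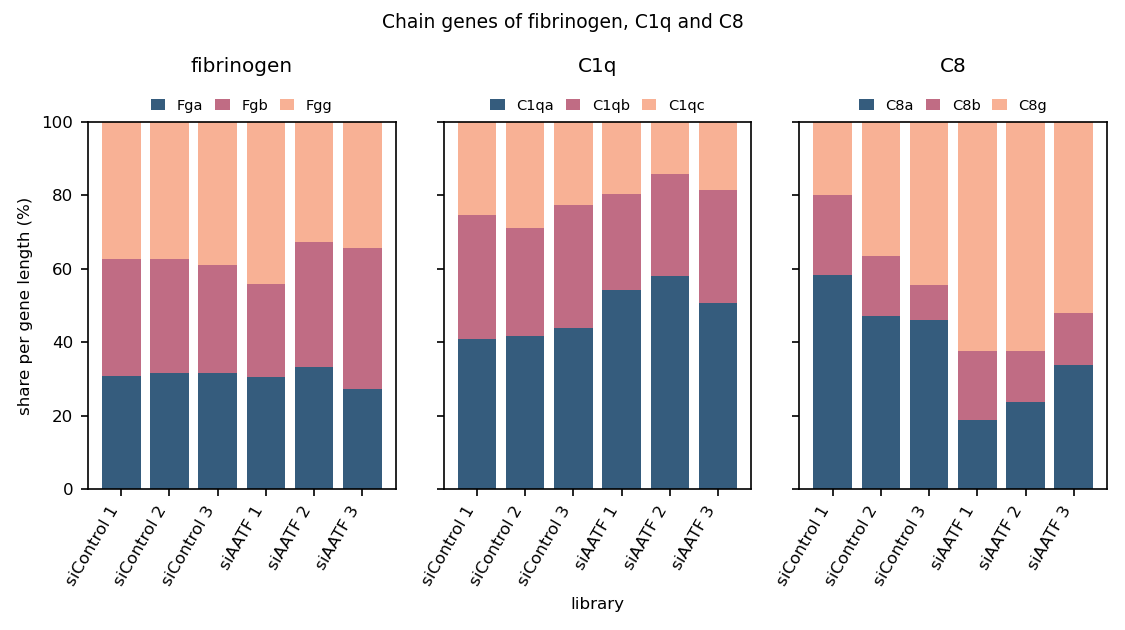
Share of each chain gene in the summed level per gene length of fibrinogen, C1q and C8 (vertical axis, %) in the 6 libraries; each bar adds to 100. The fibrinogen chains lie closer to each other in siControl than in siAATF replicate 1, C8g lies at 20.03% to 44.3% in siControl and 52.0% to 62.5% in siAATF, and C1qa at 40.8% to 43.95% and 50.6% to 58.1%.

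Other genes of the cascades, among them receptors and regulators, were read from 2 further lists. Of 19 other complement genes, 6 were called higher, 7 lower and 6 were not called. The largest rises were C1rl, a protease related to C1r, at 36.1, 21.7 and 21.8 CPM in siControl and 411, 692 and 614 CPM in siAATF (log2 fold change 4.41 ± 0.52 (SE), edgeR adjusted p = 8.86e-05), Colec10, a collectin of the lectin pathway, at 0.803, 0 and 0.558 CPM in siControl and 17.2, 8.67 and 8.88 CPM in siAATF (log2 fold change 4.31 ± 0.78 (SE), edgeR adjusted p = 0.00113), and Fcna, a ficolin, at 4.01, 0 and 0.558 CPM in siControl and 22.2, 12.7 and 21.3 CPM in siAATF (log2 fold change 3.41 ± 0.69 (SE), edgeR adjusted p = 0.00235). The largest falls were receptors of myeloid cells. C3ar1, the C3a receptor, was at 216, 104 and 132 CPM in siControl and 1.41, 0.807 and 2.44 CPM in siAATF (log2 fold change -6.52 ± 0.56 (SE), edgeR adjusted p = 2.27e-05), C5ar1, the C5a receptor, at 37.7, 70.1 and 44.1 CPM in siControl and 0.587, 0 and 1.39 CPM in siAATF (log2 fold change -5.97 ± 0.65 (SE), edgeR adjusted p = 5.67e-05), and Itgax, a chain of complement receptor 4, at 33.7, 41.1 and 59.1 CPM in siControl and 0.449, 0.403 and 1.28 CPM in siAATF (log2 fold change -5.88 ± 0.54 (SE), edgeR adjusted p = 2.58e-05). None of these 6 genes had overlapping groups. Colec10 rests on 1, 0 and 1 counts in siControl and Fcna on 5, 0 and 1, so the size of their fitted differences depends on the prior count.

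Of 18 other coagulation genes, 6 were called higher, 7 lower and 5 were not called. Adamts13, which cleaves von Willebrand factor, gave 0, 0 and 0 counts in the siControl libraries and 83, 16 and 14 in those of siAATF, and its siAATF levels of 2.86, 3.23 and 0.777 CPM did not all exceed what 3 counts mark in siControl, so no fold is given, although it was called higher (edgeR adjusted p = 0.0439). Hrg, histidine-rich glycoprotein, was at 98.8, 36.2 and 17.3 CPM in siControl and 755, 369.5 and 1722 CPM in siAATF (log2 fold change 4.21 ± 0.80 (SE), edgeR adjusted p = 0.00156) and Proz, protein Z, at 66.6, 7.25 and 15.6 CPM in siControl and 437, 369 and 723 CPM in siAATF (log2 fold change 4.03 ± 0.72 (SE), edgeR adjusted p = 0.00112). Among the genes that fell were both activators of plasminogen. Plat, the tissue-type activator, was at 36.9, 50.7 and 78.1 CPM in siControl and 0.552, 0.202 and 0.555 CPM in siAATF (log2 fold change -6.78 ± 0.51 (SE), edgeR adjusted p = 2.06e-05), and Plau, urokinase, was at 105, 50.7 and 64.1 CPM in siControl and 1.001, 0.403 and 0.943 CPM in siAATF (log2 fold change -6.41 ± 0.50 (SE), edgeR adjusted p = 2.13e-05). All siAATF libraries of both genes were below all siControl libraries.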

How the data were processed

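RNA was extracted from tissue that the labels call liver with the AllPrep DNA/RNA kit, and sequenced as read pairs from libraries of a SMART-Seq kit. The authors trimmed reads with Cutadapt, aligned them with STAR (2.7.11) to a joined human (GRCh38) and mouse (GRCm39) genome, discarded reads with several locations or in both species, and counted genes with featureCounts (2.0.1). The deposited files hold raw counts per gene and sample, 1 table per species. Use of strand was not stated, so a gene and an overlapping antisense gene cannot be told apart. The names of 56323 of 56884 mouse identifiers came from a GENCODE mouse annotation. The human table, which was not named by gene here, gave library totals only, and 3 of its lines that did not hold a whole record were left out.

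Mouse genes with at least 10 counts in total (18018) were fitted with edgeR (4.0.16, R 4.3.3; TMM, quasi-likelihood test, group as the only term), with Benjamini-Hochberg adjustment over all of them and a call at an adjusted p under 0.05. DESeq2 (1.42.0), limma-voom (limma 3.58.1) and other scalings and filters were alternatives. The script was tested on simulated data. The standard error is the log2 fold change divided by the square root of the test statistic. RPKM divides CPM by the deposited gene length.

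Members, source classes, marker lists and tests were chosen with earlier results of these data known. Values per library are given for all members not made by hepatocytes, and, among hepatocyte-made members, for those of the 2 highest and 2 lowest log2 fold changes in complement and in coagulation and the 3 of highest level per length in siAATF. Fga was added beside the other fibrinogen chains after its values were seen. In 2 lists of other pathway genes, the 3 largest rises and falls among calls are named, except 1 gene that is not reported here. For genes with several promoter windows, any window counted.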

Additional observations from a re-analysis of the deposited data

How the results depend on the processing

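The counts of calls depended mainly on what set the library size. The 39 members called higher and 8 lower, the 34 hepatocyte-made members higher and the 8 macrophage and vessel members lower stayed within 1.5 times those numbers with DESeq2, limma-voom, RLE, upper-quartile normalization, filterByExpr, no filter and thinning to 213022 counts. With the mouse library size alone 19 members were higher, all 19 made by hepatocytes, against 4.15% of all genes. With the counts of both species, 0 members were lower, against 0.66% of all genes. With the hepatocyte markers, 3 members were higher, all 3 made by hepatocytes, and 24 were lower. On that scale 0.533% of all genes were called higher and 67.9% lower. With at least 10 counts in every library 3552 genes were tested, and among the members that passed 24 were higher, 20 of them made by hepatocytes, and 5 lower, all 5 of macrophages or vessels. Leaving out 1 library gave 28 to 40 members higher and 7 to 8 lower. Of hepatocyte-made members 26 to 34 were then higher, and of macrophage and vessel members 7 to 8 were lower. Leaving out siControl replicate 2 or 3 ended 11 and 12 calls, and siAATF replicate 3 ended 6. The share of all genes called under the stricter filter or without 1 library is not given here. These counts are therefore not set against the whole table.

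With the hepatocyte markers as library size, the log2 fold change turned below 0 for C1ra (-2.46), C1s1 (-2.31), C2 (-2.44), C3 (-1.58), C4b (-0.82), C6 (-0.53), C8a (-0.12), Cfi (-1.06), Masp1 (-2.74), Mbl1 (-0.067), C4bp (-1.42), Vtn (-0.11), Clu (-3.07), Serping1 (-3.07), F2 (-1.29), F5 (-0.36), F7 (-1.62), F9 (-1.23), F10 (-1.18), F11 (-1.54), F12 (-0.88), F13b (-0.72), Fga (-1.63), Fgb (-1.30), Fgg (-1.62), Plg (-0.0421), Pros1 (-4.26), Serpinc1 (-0.0361), Serpind1 (-0.46), Serpinf2 (-0.89), Kng1 (-0.0766), Kng2 (-1.86), Cpb2 (-2.33) and Tfpi2 (-2.42). With the counts of both species as library size, it turned above 0 for C1qa (0.57), Cfb (2.79), Cfp (2.25), F3 (4.06), Procr (0.67), Thbd (2.41) and Tfpi (1.13). With the macrophage markers as library size, it turned above 0 for the macrophage members C1qa (1.24), C1qb (0.56), C1qc (0.20) and Cfp (2.76), and also for Cfb (3.34), F3 (4.37), Thbd (2.36), Tfpi (1.08) and Procr (0.59). With the mouse library size alone, it turned below 0 for Masp1 (-0.25), Clu (-0.54), Serping1 (-0.48) and Pros1 (-1.69). F3, not called in the report, changed sign at 0.24 without siControl replicate 3, 0.13 without siAATF replicate 2 and 0.09 without siAATF replicate 3. Pros1, not called in the report, changed sign at -0.0218 with DESeq2, -0.0221 with RLE normalization, -0.198 with upper-quartile normalization, -0.0235 with filterByExpr, -0.00771 without siControl replicate 2, -0.39 without siAATF replicate 3, -0.65 with libraries thinned to 213022 counts and -0.0924 with limma-voom, and its lone-library omissions ran from -0.39 to 0.44 (without siAATF replicate 2).

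The replicate numbers do not pair the samples: same-numbered libraries correlated at 0.145, 0.212 and -0.023 in their deviations from the group means. A fit with the replicate block gave 39 members higher and 8 lower, 34 hepatocyte-made members higher and 8 macrophage and vessel members lower, and changed no other call. The low mouse depth of siControl limits the members with few siControl counts. Among these are Cfb, Cfd, F3, Klkb1, Mbl2, Procr and Thbd, and also Masp2, F13b, C8b, C8g, F11 and F7. The cause of these shifts was not tested, beyond the fewer genes tested under the stricter filter.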
